A study of Rattus norvegicus with 21 samples.

Results

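Sorted microglia and total spinal cord were compared in rats that had received only the vehicle, phosphate-buffered saline (PBS). The comparison was chosen by the sample titles and rests on 7 of the 21 libraries of the series: 4 of sorted microglia (replicates 1, 2, 3 and 5) and 3 of total cord (replicates 1, 2 and 3). All 7 came from wild-type LEW/Crl rats of 6 to 8 weeks that had been dosed with PBS through the trachea for 7 days. Spinal cords were homogenised and myelin was removed on Percoll. The remaining pellet is the total cord, and microglia are the CD45low CD11b+ cells sorted from it. The other libraries came from rats given neomycin (NEO) or vancomycin (VANCO) in the same way, with 4 microglia and 3 cord libraries for each. The filter, the scaling and the spread behind the p-values were estimated on all 21 libraries. The labels do not say whether a library is 1 animal or a pool, so p-values measure only the spread between libraries.

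Microglia are the resident macrophages of the central nervous system. CD11b is a subunit of an integrin carried by myeloid cells, and CD45 is a phosphatase of the leukocyte surface that microglia carry at a lower level than leukocytes from the blood, so the gate takes myeloid cells and leaves out CD45-high ones. Total cord also holds neurons, astrocytes, cells of the oligodendrocyte lineage and cells of blood vessels. Setting the sorted cells against the pellet asks which transcripts the sort enriches and which it removes.

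The deposited tables list Ensembl gene IDs without names, and 0 of 32883 IDs could be paired with a gene symbol. The labelled cell type could therefore not be checked against its defining markers, and the results are described by the size, abundance and spread of the differences. In such bulk samples, fewer cells of a type and less RNA per cell cannot be told apart. The PBS microglia libraries held 9020480 to 22435887 counts and the cord libraries 16769410 to 18272910. No library was a copy of another. Between replicates the biological coefficient of variation was 27.6% in microglia (n = 4) and 13.7% in cord (n = 3), so microglia values carry the larger error. Microglia replicate 2 stands apart from the other microglia libraries, as described below, and the main results that rest on it are given with and without it.

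Most genes differed between the sorted cells and the tissue. Of 15546 genes tested with edgeR's quasi-likelihood test, 6991 (45.0%) were higher in microglia and 6074 (39.1%) lower at a Benjamini-Hochberg adjusted p of at most 0.05. The sort removed transcripts by larger factors than it enriched them: called-higher genes had a median log2 fold change of 1.43, and called-lower genes one of -3.86. At least 8-fold differences numbered 1304 genes higher (8.39%) and 3524 lower (22.7%). The 4 microglia libraries did not overlap the 3 cord libraries for 6787 tested genes that were higher and 5982 that were lower. For 536 called genes the libraries overlapped.

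The direction of small differences depended on scaling. Trimmed-mean (TMM) factors put 53.5% of called genes on the higher side, RLE factors in edgeR 41.1% (5143 higher and 7367 lower) and DESeq2 42.4% (5152 and 7011). With RLE the median over the tested genes shifted by -0.50 on the log2 scale, and 50 genes were then called in the opposite direction. Under TMM, RLE, upper quartile factors and DESeq2 alike, 5102 genes were higher and 5727 lower. At least 8-fold differences under all of them were found for 1013 genes on the higher side and 3187 on the lower. Only 3211 tested genes had a 95% interval of their fold change wholly within 2-fold, of which 1575 were called and 1636 were not.

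**Figure D1:**
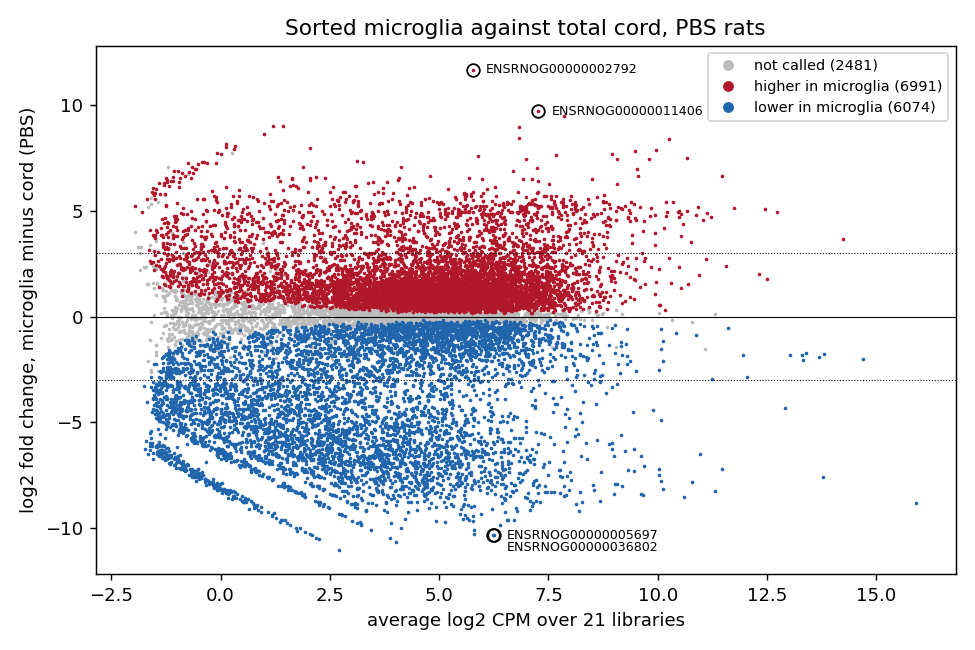
Log2 fold change of microglia against cord in PBS rats (y axis, positive is higher in microglia) by average log2 CPM (counts scaled to a common library total) over the 21 libraries (x axis), 1 point per tested gene. Dotted lines mark 8-fold. The 6074 lower genes reach farther from 0 than most of the 6991 higher ones, and open circles mark the 4 IDs described in the text, of which the 2 lower ones nearly coincide.

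Size classes held unequal shares of the counts. Genes 2- to 8-fold higher in microglia (3570 genes) held 32.8% of microglia counts and 9.02% of cord counts. The 503, 432 and 268 genes that were 8- to 16-fold, 16- to 32-fold and 32- to 64-fold higher held 10.1%, 10.6% and 8.01% of microglia counts, against 0.808%, 0.391% and 0.194% of cord counts. The 101 genes at least 64-fold higher held only 2.71% of microglia counts. On the other side, 1567 genes that were 2- to 8-fold lower held 27.1% of cord counts and still 8.03% of microglia counts. That microglia share is a mean over 4 libraries that leans on replicate 2. There 7 abundant genes of this class took 9.35% of the scaled total, against 2.03%, 2.90% and 2.60% in replicates 1, 3 and 5. The 571, 620 and 687 genes in the next classes up to 64-fold held 2.13%, 4.14% and 2.56% of cord counts and 0.224%, 0.208% and 0.0603% of microglia counts. The 1646 genes at least 64-fold lower held the largest cord share of these classes, 31.0%, and 0.151% of microglia counts. The most abundant cord gene, 456-fold lower, is among them and alone took 12.2% to 16.5% of counts in the cord libraries.

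Cord RNA was dominated by few genes, and microglia RNA was not. The most abundant gene of each library took 12.8%, 12.2% and 16.5% of counts in cord replicates 1, 2 and 3. In microglia replicates 1, 2, 3 and 5 it took 2.96%, 4.35%, 2.98% and 3.25%. The 10 most abundant genes held 31.6%, 32.7% and 35.8% in cord and 10.1%, 15.9%, 9.55% and 10.2% in microglia. Every microglia library was below every cord library, with replicate 2 the highest of the microglia. It took 171, 134 and 104 genes to reach 50% of counts in cord, and 617, 435, 648 and 621 in microglia.

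More genes were nonetheless detected in cord. At an equal depth of 9000000 counts, 17573, 17130 and 17078 genes would be expected with a count in cord, and 16158, 15911, 16422 and 15642 in microglia. The groups did not overlap in this measure or in the share of the top 10 genes. A two-sided exact permutation test gave p = 0.0571 for each, the smallest p that 4 against 3 libraries allow.

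**Figure D2:**
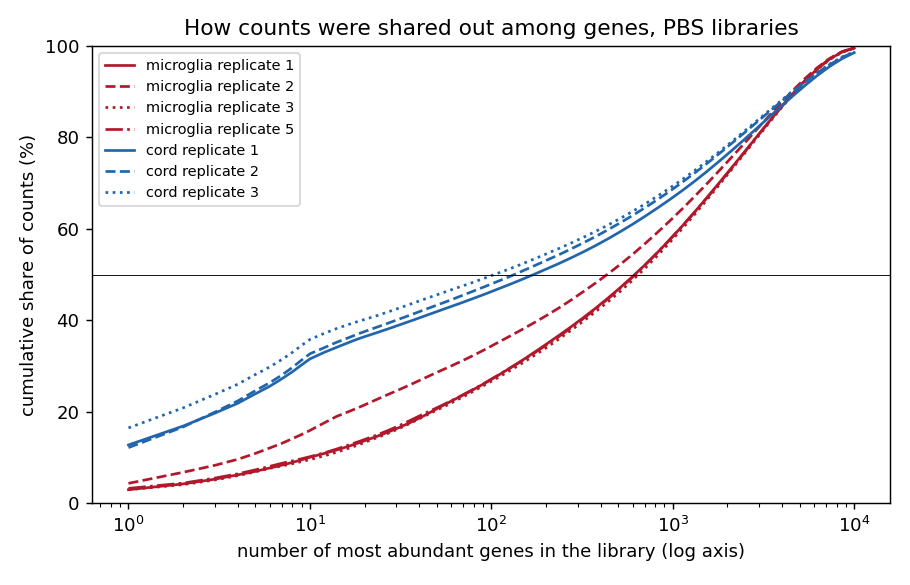
Cumulative share of counts (y axis, percent) held by the most abundant genes of each PBS library (x axis, number of genes on a log axis), with 1 line per library. Cord lines (blue) start higher and cross 50% at 104 to 171 genes, microglia lines (red) at 435 to 648, with microglia replicate 2 (dashed) nearest to cord.

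The 100 most abundant genes of the groups shared 26 members. Of the 100 in microglia, 84 were called higher in microglia and 11 lower. Of the 100 in cord, 84 were called lower and 10 higher. Over all genes tested, 45.0% were called higher and 39.1% lower. Each 100 was chosen by abundance in the same PBS libraries, which in itself favours calls toward its own tissue. The most abundant microglia gene had 27980, 44490, 28500 and 30640 CPM (counts scaled to a common TMM-adjusted library total) in replicates 1, 2, 3 and 5, and 2449, 2767 and 2530 in cord replicates 1, 2 and 3. All microglia values lay above all cord values, and the gene was 12.7-fold higher in microglia (3.67 ± 0.21 (SE) on the log2 scale, edgeR adjusted p = 2.2e-11).

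All 10 of the most abundant cord genes, chosen on the same cord libraries, were called lower in microglia (39.1% of all genes tested were), but they fell into 2 kinds. Those of rank 1, 3 and 7 were at most 5.68% of their cord level in every microglia library. The most abundant cord gene had 128500, 130400 and 178500 CPM in cord and 167.8, 646.3, 234.5 and 231.5 CPM in microglia replicates 1, 2, 3 and 5 (-8.83 ± 1.48 (SE) on the log2 scale, edgeR adjusted p = 3.07e-05). The gene of rank 3 had 28620 to 35050 CPM in cord and 33.6, 413.4, 88.0 and 123.5 CPM in microglia, with a log2 fold change of -7.60. Replicate 2 was the highest microglia library for both genes and yet far below every cord library. The gene of rank 7 had 16590 to 18050 CPM in cord and 703.0 to 984.3 CPM in microglia, a log2 fold change of -4.31 (SE 0.30), and there replicate 2 lay among the others.

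The other 7 of these 10 genes were only 3.27- to 4.16-fold lower. Each stood at 11.5% to 20.9% of the cord mean in microglia replicates 1, 3 and 5 and at 51.8% to 73.1% in replicate 2. Summed, the 7 genes had 144200, 167300 and 159200 CPM in cord. In microglia replicates 1, 3 and 5 they had 20270, 29000 and 26040 CPM, and in replicate 2 93470 CPM. The groups did not overlap, but replicate 2 lay closer to cord than to the other microglia libraries. Without replicate 2 the 7 genes were 5.75- to 6.78-fold lower, so this library moved each value by more than 1.5-fold. The gene of rank 1 was then 690-fold lower in place of 456-fold, and that of rank 3 391-fold in place of 194-fold.

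The same gap occurred in the libraries of the antibiotic-treated rats that carry the number 2. The 7 genes summed to 66.8% of the PBS cord mean in NEO microglia replicate 2 and to 14.1% to 17.2% in NEO replicates 1, 3 and 5. In VANCO microglia they summed to 53.1% in replicate 2 and to at most 17.1% in the others. Cord libraries with the number 2 were at 107% (PBS), 109% (NEO) and 110% (VANCO), within the 91.9% to 117% of the other cord libraries. What the number stands for is not given in the labels.

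**Figure D3:**
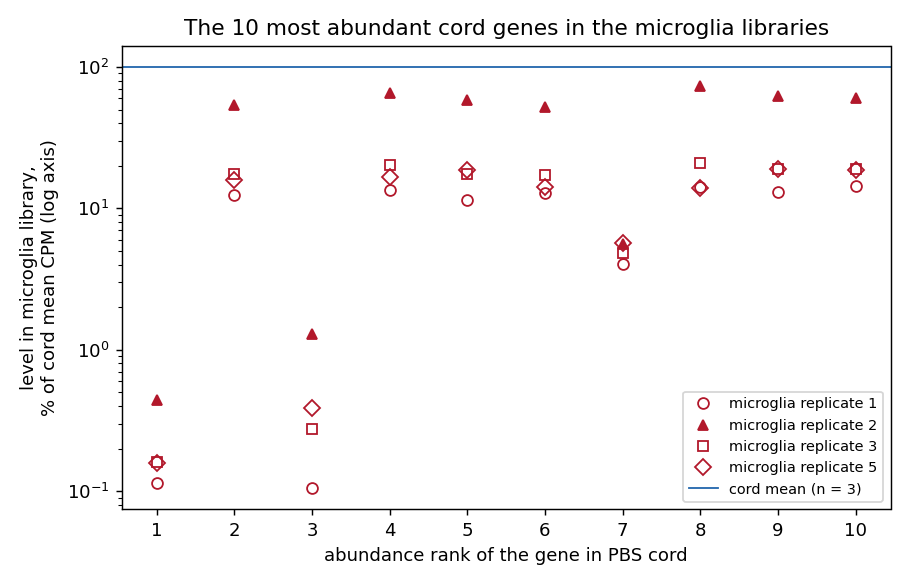
Level of the 10 most abundant cord genes in each PBS microglia library (y axis, percent of the mean of 3 cord libraries, log axis) by their rank in cord (x axis). Microglia replicate 2 (filled triangles) is at 51.8% to 73.1% for 7 genes, which the other microglia libraries hold at 11.5% to 20.9%, while the genes of rank 1 and 3 are under 2% in every microglia library.

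To read how far the sort removed cord RNA without choosing genes on the PBS libraries, cord-high genes were taken from the NEO and VANCO libraries: at least 16-fold lower in microglia in both, with at least 10 CPM in cord, 1640 genes. In PBS, 1639 of them were called lower, against 39.1% of all genes tested, and 1630 by at least 8-fold, against 22.7%. Their median log2 fold change was -6.58 (quartiles -7.57 and -5.52) beside 0.21 over all genes tested. As they were chosen at 16-fold in NEO and VANCO in the same fit, they left little room for another outcome. Their summed level was 0.611%, 1.47%, 0.678% and 0.479% of the cord mean in microglia replicates 1, 2, 3 and 5, a mean of 0.809% ± 0.447 (SD, n = 4). Without replicate 2 the mean was 0.589%. Replicate 2 was the highest, and every library was below 2% of cord. The 1640 genes stood at 1.47% of cord in the library where the 7 abundant genes stood at 59.6%. The rule of at least 16-fold in NEO and VANCO, where replicate 2 shows the same gap, leaves out genes like the 7. This contrast was therefore partly set by the choice of genes, and was not tested.

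Single genes of this set varied around the summed level. The median gene stood at 0.794%, 1.91%, 0.924% and 0.512% of cord in the 4 microglia libraries. Its quartiles were 0.297% and 2.11% in replicate 1, and 0.884% and 3.59% in replicate 2. No count at all was found for 198, 102, 89 and 214 of the 1640 genes, and 31, 49, 19 and 0 genes reached 10% of their cord level. Replicate 5, the library with the most counts, thus stood lowest for these 1640 genes by each of these measures. It was not lowest for the 10 most abundant cord genes, which took 2.738% of its scaled total and 2.117% in replicate 1.

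The reverse measure was steadier. Microglia-high genes, chosen in the same way from the NEO and VANCO libraries, numbered 511. All 511 were called higher in PBS by at least 8-fold, against 8.39% of all genes tested. Their median log2 fold change was 4.97, beside 0.21 over all genes tested. Genes chosen at 16-fold in NEO and VANCO in the same fit left little room for another outcome. In cord replicates 1, 2 and 3 their summed level was 2.94%, 3.04% and 3.07% of the microglia mean, a mean of 3.02% ± 0.0673 (SD, n = 3). The median gene was at 3.06%, 3.11% and 3.06%, so these cord libraries held nearly the same level of microglia-high RNA. In microglia the 511 genes took 22.9%, 17.8%, 20.9% and 20.8% of counts in replicates 1, 2, 3 and 5, with replicate 2 lowest.

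**Figure D4:**
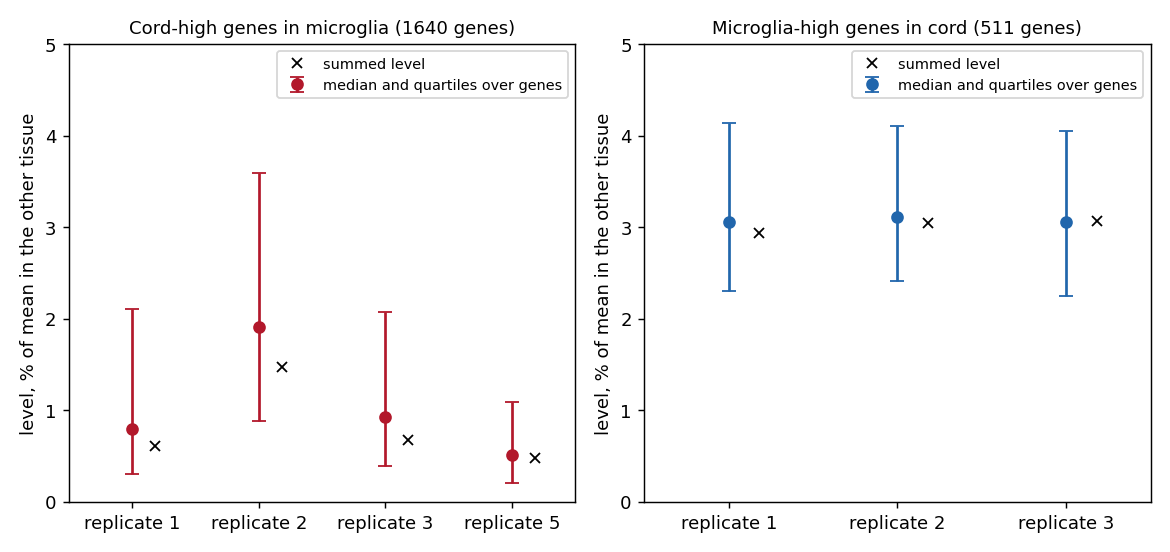
Level of genes chosen in the NEO and VANCO libraries, read in PBS libraries as percent of the mean in the other tissue (y axis): 1640 cord-high genes in each microglia library (left) and 511 microglia-high genes in each cord library (right). Dots and bars are the median and quartiles over genes and crosses the summed level, which is 0.479% to 1.47% on the left and 2.94% to 3.07% on the right.

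Genes detected on one side only were few and mostly of low level. A count in all 7 PBS libraries was found for 13528 IDs. A further 684 IDs had a count in every cord library and none in any microglia library, and 136 of these reached 1 CPM in cord, with 14.5 CPM the highest. The reverse held for 142 IDs, of which 14 reached 1 CPM, with 3.87 CPM the highest. A count of 0 allows a level of up to 0.0499 CPM over the 60141434 pooled microglia counts and 0.0567 CPM over the 52884334 pooled cord counts. These limits, and the count ratios given below, cover counting error only.

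The genes enriched most were also the least even among microglia libraries. Among genes with at least 10 CPM in microglia, the median gene 8- to 16-fold higher had a ratio of 1.38 between its highest and lowest PBS microglia library (334 genes). The ratio was 1.36 for 16- to 32-fold (303 genes) and 1.33 for 32- to 64-fold (201 genes). For the 46 genes at least 64-fold higher it was 7.27, and 33 of the 46 varied by 4-fold or more (on CPM plus a pseudocount of 0.5). Class and ratio were read on the same PBS microglia libraries, which in itself can favour a wide ratio in the top class. In NEO and VANCO microglia the same 46 genes had ratios of 11.0 and 8.73, and 38 and 34 varied by 4-fold or more. Replicate 2 was the lowest PBS library for 44 of the 46. Without the libraries numbered 2, the median ratio of the 46 genes was 4.38 in PBS, 4.72 in NEO and 4.26 in VANCO, and 25 varied by 4-fold or more in PBS. The classes under 64-fold then had ratios of 1.22 to 1.23 in PBS, so the step stood, at a smaller size. On the cord side no such step was seen. The 1061 genes at least 64-fold lower in microglia, with at least 10 CPM in cord, had a median ratio of 1.21 among cord libraries, and 2 varied by 4-fold or more.

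The 33 genes fell into 2 sets by the PBS library where each was highest: 16 in microglia replicate 1 and 17 in replicate 3. Summed CPM in PBS microglia replicates 1, 2, 3 and 5 was 39830, 6997, 11990 and 12820 for the 16 genes. It was 4447, 358.9, 11420 and 1890 for the 17 genes. The first set was at 116.0 to 150.9 CPM in PBS cord, and the second at 35.6, 34.3 and 6.27 CPM in cord replicates 1, 2 and 3. All microglia values were above all cord values, with replicate 2 the lowest microglia library for both sets. Without it, 8 of the 16 genes and all 17 of the second set still varied by 4-fold or more.

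The pattern by number recurred in the libraries that had not been used to form the sets. All 16 genes of the first set were highest in replicate 1 in NEO and in VANCO microglia, and all 17 of the second were highest in replicate 3 in both. The first set summed to 34980, 3627, 11020 and 8232 CPM in NEO replicates 1, 2, 3 and 5 and to 32620, 5579, 13510 and 11370 CPM in VANCO. For the second set the sums were 3238, 278.4, 14520 and 3184 CPM in NEO and 6836, 731.9, 15940 and 1164 CPM in VANCO. In cord, the second set was lowest in replicate 3 in each treatment (6.27, 16.7 and 6.96 CPM, against 25.7 to 89.8 CPM in the others). The labels do not say whether a number marks the same unit in cord and in microglia.

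The 33 genes were not the whole of it. Of all 884 genes at least 8-fold higher with at least 10 CPM in microglia, 77 varied by 4-fold or more among the PBS microglia. Replicate 1 was the highest library for 34 of them and replicate 3 for 43. In NEO and in VANCO, all 34 and all 43 were highest in the library with the same number. No PBS library numbered 2 or 5 was the highest for any of the 77. Without replicate 2, 62 of the 77 varied by 4-fold or more. The highest library of each of the 77 genes thus had the same number in every treatment, and what the number marks was not tested. In the class of at least 64-fold, 13 of the 46 genes varied by less than 4-fold.

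**Figure D5:**
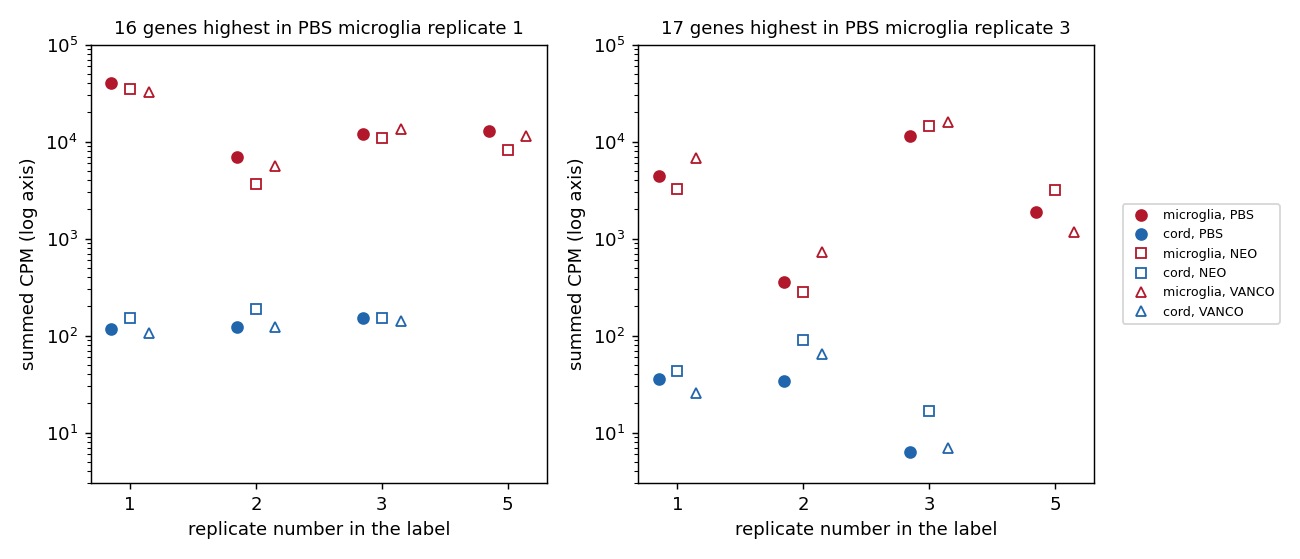
Summed CPM (y axis, log axis) of 16 genes highest in PBS microglia replicate 1 (left) and 17 genes highest in PBS microglia replicate 3 (right), by replicate number (x axis), in microglia (red) and cord (blue) of each treatment. Among microglia, replicate 1 is highest in all treatments on the left (32620 to 39830 CPM), replicate 3 on the right (11420 to 15940 CPM), and replicate 2 is lowest on both.

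The 4 IDs named here show the extremes at the level of 1 gene, chosen as the 2 largest fold changes in each direction among genes with at least 50 CPM and no overlap. ENSRNOG00000002792 had 183, 28.1, 85.1 and 59.5 CPM in microglia replicates 1, 2, 3 and 5 and 0, 0 and 0.0646 CPM in cord. Pooled, 5388 counts in microglia stood against 1 in cord, a depth-scaled ratio of 4320 with a 95% counting interval of 774 to 170000 (11.68 ± 1.62 (SE) on the log2 scale, edgeR adjusted p = 3.83e-06). The only cord count was in replicate 3, without which the fitted value was 13.61, a value that then rests on 0 counts in cord, and without microglia replicate 1 it was 11.06. ENSRNOG00000011406 had 708, 76.9, 161 and 161 CPM in microglia and 0.282, 0.352 and 0.323 CPM in cord. Its 15855 counts against 16 gave a ratio of 794 (489 to 1390), or 9.73 ± 1.56 (SE) on the log2 scale (edgeR adjusted p = 1.93e-05). Without microglia replicate 1, the highest library, it was 8.68. Both were highest in replicate 1 and lowest in replicate 2, in PBS, NEO and VANCO alike.

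ENSRNOG00000005697 had 0.0843, 0.453, 0.164 and 0 CPM in microglia replicates 1, 2, 3 and 5 and 194, 203 and 155 CPM in cord. Its 8 counts in microglia against 9293 in cord made it 1450-fold lower (736 to 3360), or -10.37 ± 1.29 (SE) on the log2 scale (edgeR adjusted p = 1.15e-06). Without microglia replicate 2, which held 4 of the 8 counts, it was -11.13, and without replicate 5, at 0 counts, -9.73. ENSRNOG00000036802 had 0.253, 0, 0.219 and 0.042 CPM in microglia and 264, 104 and 162 CPM in cord. With 8 against 8964 counts it was 1400-fold lower (710 to 3240), or -10.35 ± 1.54 (SE) on the log2 scale (edgeR adjusted p = 8.75e-06). In NEO microglia both stood higher in replicate 2, at 7.48 CPM for ENSRNOG00000005697 and 11.9 CPM for ENSRNOG00000036802, against at most 0.221 and 0.0498 CPM in the other NEO libraries. Their NEO log2 fold changes were -6.64 and -5.94, and in VANCO they were -10.55 and -10.37.

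The comparison of sorted cells with cord gave similar values in the antibiotic-treated rats, in libraries apart from the PBS ones. Of the 1304 genes at least 8-fold higher in PBS, 1289 were called higher in NEO and 1295 in VANCO, 1160 and 1217 of them by at least 8-fold. Of the 3524 genes at least 8-fold lower in PBS, 3521 were called lower in NEO and 3521 in VANCO, 3372 and 3397 by at least 8-fold. Over all 15546 genes tested, 1243 were at least 8-fold higher in NEO and 1320 in VANCO. At least 8-fold lower were 3495 and 3531. In PBS, 45.0% of all genes tested were called higher and 39.1% lower, so calls alone were common. No gene of either PBS class had the opposite sign in NEO or VANCO. Median log2 fold changes of the higher class were 4.35 in PBS, 4.20 in NEO and 4.36 in VANCO, and those of the lower class -5.84, -5.21 and -6.11. The interaction in edgeR called 0 genes for NEO and 0 for VANCO, with 438 and 234 genes at an unadjusted p under 0.05 and lowest adjusted p of 0.824 and 1. That fit ignores the replicate number, which libraries of 1 tissue share across treatments. Deviations from the group means correlated at r of 0.195 to 0.689 for same-numbered microglia libraries. Differently numbered ones were at -0.559 to 0.326, so the ranges overlap. In cord r was 0.299 to 0.523 for same-numbered libraries and -0.425 to 0.0192 for the others. With the number as a block within each tissue, a fit added after the data were seen, the interaction called 30 genes for NEO and 18 for VANCO, with 1411 and 636 at an unadjusted p under 0.05. Of the 30 and 18 called genes, 2 and 0 belonged to the 1304 higher genes and 10 and 10 to the 3524 lower ones. Over all genes tested, 8.39% belonged to the higher class and 22.7% to the lower.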

How the data were processed

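RNA-seq libraries of sorted microglia and total cord were deposited as raw counts per Ensembl gene ID. The submitters' processing notes list the rn6 build, featureCounts 1.5.0-p1, STAR 2.5.2a and bcl2fastq 2.20.0.422. Not given in the sources used here: annotation release, strand setting and handling of multiply aligned reads. Counts of overlapping, antisense and near-identical genes are therefore uncertain. Groups and replicate numbers came from the titles.

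Counts of all 21 libraries were fitted as 6 group means in R 4.3.3 with edgeR 4.0.16 (filterByExpr by group, TMM factors, robust quasi-likelihood test, Benjamini-Hochberg over 15546 genes, threshold 0.05), and the script was tested on simulated data. CPM use TMM-scaled totals, while shares of counts use plain totals. Alternatives used limma 3.58.1, DESeq2 1.42.0, other factors, filters and samples. Python 3.11.15, pandas 2.3.3 and scipy 1.17.1 made the summaries.

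The 54 gene lists and the marker lists need symbols and were not run. The planned levels of cord and microglia markers were read instead on sets chosen in the NEO and VANCO libraries, after the data had been seen. Without symbols, the rule names the 2 IDs with the largest fold change in each direction, with at least 50 CPM in the higher group. The comparison and lists were chosen with earlier results of these data known. Same-numbered microglia and cord libraries did not deviate together (PBS r from -0.139 to 0.191 over 3 pairs), so numbers were not treated as pairs across tissues.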

Additional observations from a re-analysis of the deposited data

Results flagged for a closer look

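In 14 measures of the 4 PBS microglia libraries, 1 library lay apart in 3 by Dixon's ratio of the outermost gap to the range at its 95% critical value. Chance gives that in about 1 in 20, and the measures share libraries. The 10 most abundant genes of microglia replicate 2 held 15.92% of its counts, against 9.547% to 10.18% in replicates 1, 3 and 5. The 10 most abundant cord genes made up 9.55% of the scaled total in microglia replicate 2, against 2.117% to 3.016% in the others. ENSRNOG00000011406 had 708 CPM in microglia replicate 1, against 76.9 to 161 CPM in the others.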

How the results depend on the processing

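The balance of higher and lower calls turned with scaling, filter and samples: 53.5% of calls were higher with TMM, 41.1% with RLE, 42.4% with DESeq2, 46.1% with upper quartile factors, 48.1% with a 1 CPM filter and 47.8% with only the PBS libraries. The 4 IDs kept their direction in each alternative that gave an adjusted p. They were chosen for the largest fold changes on the same counts, so this could hardly turn and adds no support. The size of p did depend on the method. With limma-voom the adjusted p was larger for the 2 higher IDs, 0.0252 for ENSRNOG00000002792 and 0.0208 for ENSRNOG00000011406. For the 2 lower IDs it was smaller, 1.45e-08 for ENSRNOG00000005697 and 1.57e-06 for ENSRNOG00000036802. Counts of genes called higher and lower were 6991 and 6074, and stayed within 1.5-fold in every alternative. They were 5844 and 6843 with upper quartile factors, 5754 and 6281 with only the PBS libraries, 5873 and 6339 with a filter of 1 CPM, 7062 and 6670 without a filter, 6881 and 6165 with limma-voom, and 7084 and 6226 with weights per group. Leaving out 1 library gave 6700 to 6924 and 5916 to 6094, with at least 8-fold classes of 1250 to 1367 and 3444 to 3589. Of the 1304 and 3524 genes in those classes, 1236 and 3508 were called whichever of the 7 libraries was left out. With the replicate number as a block the counts were 7141 and 6218, and 1302 and 3464 in the 8-fold classes. With only the PBS libraries the 8-fold classes held 1055 and 3390 genes.

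The level of cord-high genes in microglia was 1.37% on genes chosen at 8-fold and 1.32% at 64-fold, in place of 0.809%. The level of microglia-high genes in cord was 2.76% with plain totals, 4.67% at 8-fold and 0.651% at 64-fold, in place of 3.02%: the value depends on the fold that chooses the genes. The 33 uneven genes were 35 with plain totals, 33 with a pseudocount of 1 CPM and 25 without replicate 2. The interaction, with 0 genes for NEO and for VANCO, called 30 and 18 with the replicate number as a block within each tissue and 3 and 9 with it as a block across tissues. DESeq2 gave no adjusted p for ENSRNOG00000005697. Medians of gene lists were not run. Depth limits genes at 0 counts, for which only an upper limit is known.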
